A study of Mus musculus with 12 samples.

Results

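The genes described here carry the signaling of the epidermal growth factor receptor (EGFR) and of the hepatocyte growth factor receptor (MET) in the mouse liver. They were chosen by symbol from a list of 10, Egfr, Met, Hgf, Hgfac, Hbegf, Tgfa, Erbb3, Errfi1, Dusp1 and Dusp6. In the deposited table of 11289 genes, 9 of the 10 were found, and Hbegf was not analysed here. Liver RNA was sequenced from 12 C57BL/6J mice, with 4 mice in each of 3 groups. The control group received neither concanavalin A (Con A, a T cell-activating lectin from plants) nor cells, and the labels give no vehicle for it. The Con A + PBS group received 15 mg/kg of Con A through the tail vein and PBS 30 min later. The Con A + hWJ-MSCs group received the same dose of Con A and, 30 min later, 2000000 human mesenchymal stem cells from the Wharton's jelly of the umbilical cord (hWJ-MSCs) by vein. No allele or transgene was named for any mouse, all were male per the study's methods and 8 to 10 weeks old per the labels, and their livers were taken at 24 h. The paper gives another age range and another number of cells than the labels. The table lists mouse genes only.

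EGFR binds several ligands, among them TGF-alpha, which is made as a membrane protein and released by proteases, while ERBB3 binds neuregulins and signals in pairs with the other receptors of the family. HGF is secreted mainly by stellate and endothelial cells as an inactive chain, is cut by proteases such as the HGF activator encoded by Hgfac, and then binds MET on hepatocytes. Both receptors drive the RAS and ERK cascade, which early genes read out and which inhibitors such as ERRFI1, DUSP1 and DUSP6 limit, and both are known for their part in liver regeneration.

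Among the ligands and their activators, Tgfa rose 3.63-fold and Hgfac was 2.79-fold lower after Con A, and in the mice that received hWJ-MSCs Tgfa was 2.03-fold lower than with Con A + PBS. Dusp1, an inhibitor of MAP kinases, was lower with hWJ-MSCs than in either other group, while Egfr, Met and Erbb3 passed the test in no comparison. In each of these Dusp1 comparisons the call was lost in 9 of 12 fits that left out 1 mouse, and the Tgfa call with hWJ-MSCs against Con A + PBS in 3. The level of each gene was the deposited score, a whole number that had been normalized between mice. Genes were tested with limma on log2(score + 1), and a call needed more than a 1.5-fold difference and an adjusted p (Benjamini-Hochberg, over all 11289 genes) under 0.05. The promoter windows of Tgfa, Hgfac and Dusp1 are shown because these genes had the largest log2 fold changes among the 9. They are RefSeq sequences of GRCm38.p6, the build named mm10 in the files, read 5′ to 3′ on the strand of the gene from 250 to 51 bases before the RefSeq start, and capitals mark the matches to the motifs given after them. The windows lie at chr6:86194972-86195171 on the plus strand (Tgfa), chr5:35041259-35041458 on the plus strand (Hgfac) and chr17:26508523-26508722 on the minus strand (Dusp1).
Tgfa: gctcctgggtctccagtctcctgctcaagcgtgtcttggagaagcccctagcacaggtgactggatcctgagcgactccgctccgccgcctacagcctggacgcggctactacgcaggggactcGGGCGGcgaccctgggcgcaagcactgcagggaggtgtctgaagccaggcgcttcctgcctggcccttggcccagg
Hgfac: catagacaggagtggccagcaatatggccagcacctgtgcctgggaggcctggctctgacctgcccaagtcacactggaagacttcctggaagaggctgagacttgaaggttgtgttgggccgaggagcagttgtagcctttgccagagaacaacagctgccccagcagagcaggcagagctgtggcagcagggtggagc
Dusp1: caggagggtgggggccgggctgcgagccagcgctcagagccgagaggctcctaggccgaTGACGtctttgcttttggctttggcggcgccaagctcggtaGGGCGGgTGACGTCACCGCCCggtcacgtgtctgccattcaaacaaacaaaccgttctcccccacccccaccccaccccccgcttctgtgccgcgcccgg
The motifs searched on both strands were the AP-1 site (TGANTCA), the cAMP response element (TGACGTCA) and its core (TGACG), the ETS core (CCGGAA), the GC box (GGGCGG), the TATA box (TATAAA), the CArG box and the NF-kB site. The Dusp1 window held 1 complete cAMP response element, which 0.828% of the 32851 RefSeq promoter windows of the same length hold. It also held 3 matches to the core of that element, of which 2 lie within the complete one, and 2 GC boxes. The core was present in 12.7% of all windows and the GC box in 24.6%. The Tgfa window held 1 GC box, and the Hgfac window held no match. Promoter windows were found for 8 of the 9 genes. Of the others, the Met window held 2 GC boxes and the Egfr window 1 ETS core, a motif present in 8.03% of all windows, and no match to any motif was found for Hgf, Errfi1 or Dusp6. The AP-1 site, TATA box, CArG box and NF-kB site, in 5.57%, 9.14%, 1.16% and 4.70% of all windows, were in none of the 8. The windows end 51 bases before the start, so a TATA box or other site nearer to it could not be found. A match in these letters is a description and does not show that a factor binds there.

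Of the 9 genes, 2 were called in Con A + PBS versus control, 1 higher and 1 lower. Over all genes 38.8% were called in that comparison, 19.5% higher and 19.2% lower. The scores of the groups did not overlap for 3 of the 9 genes, against 50.4% of all genes. When the Con A groups with and without cells were compared, 2 genes were called, both lower with hWJ-MSCs, and 4 had scores that did not overlap. The shares over all genes were 8.58% called, 4.20% higher, 4.38% lower and 23.5% not overlapping. With hWJ-MSCs against the control group, 4 genes were called, 1 higher and 3 lower, and 4 did not overlap, with 26.7% of all genes called, 13.6% higher, 13.1% lower and 37.9% not overlapping. The median log2 fold changes of the 9 genes were 0.30, -0.18 and -0.29 in these comparisons, and those of all genes 0.045, 0.00 and 0.041. The comparisons share groups, the Con A + PBS mice being in both the Con A and the cell comparison, so their values stand side by side here and are not independent of each other.

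**Figure D1:**
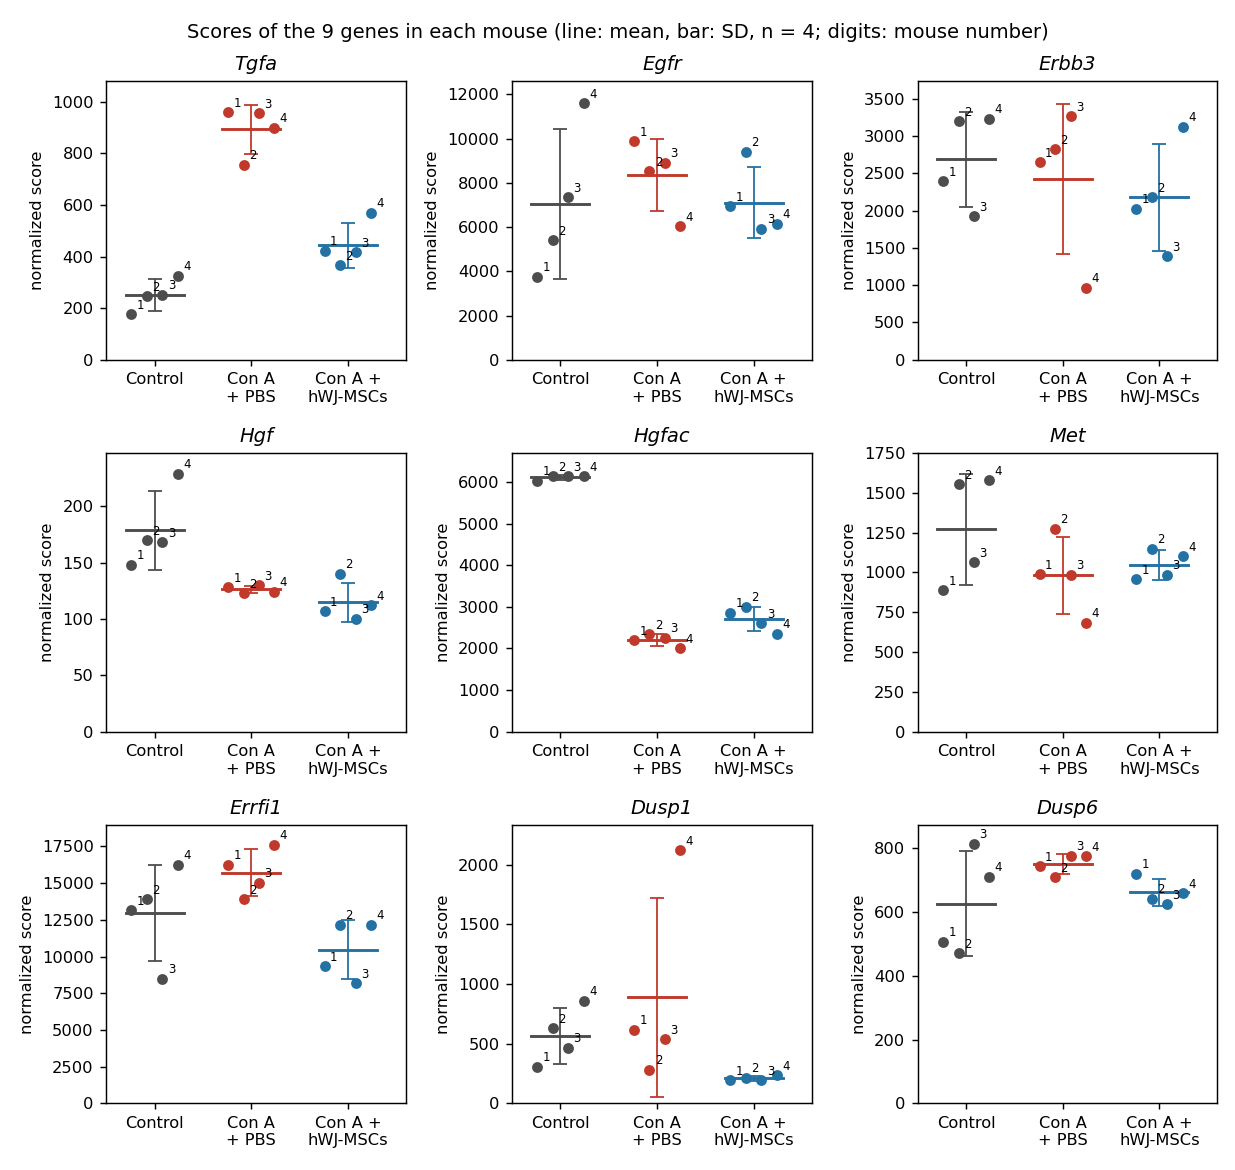
Normalized score (vertical axes from 0, no unit) of the 9 genes in each of the 12 mice, in 3 groups of 4. Points are mice with their numbers, horizontal lines are means and bars are SDs. The Tgfa scores of the 3 groups and the Hgfac scores of the 3 groups do not overlap, the Egfr scores of the control mice span 3747 to 11601, and Con A + PBS mouse 4 stands far above the other mice for Dusp1.

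Tgfa (ENSMUSG00000029999, chr6:86195251-86275449, plus strand) had scores of 176, 246, 252 and 326 in the control mice. The scores were 960, 756, 956 and 900 in the Con A + PBS mice and 423, 366, 416 and 570 in the Con A + hWJ-MSCs mice. All Con A + PBS mice lay above all others, and the mice with hWJ-MSCs lay between the other groups without overlap on either side. The group means were 250 ± 61.3, 893 ± 95.4 and 443.8 ± 87.9 (SD, n = 4). On the log2 scale Tgfa rose by 1.86 (SE 0.18, limma adjusted p = 5.81e-06) after Con A, a 3.63-fold difference. It fell by 1.02 (SE 0.18, limma adjusted p = 0.0188) with hWJ-MSCs against Con A + PBS. Against the control group it was still higher by 0.84 (SE 0.18, limma adjusted p = 0.003). The two-sided exact permutation test gave p = 0.0286 in each comparison, the smallest value that 4 mice against 4 can reach. The call with hWJ-MSCs was lost without Con A + PBS mouse 1 (limma adjusted p = 0.0696), Con A + hWJ-MSCs mouse 2 (0.0609) or Con A + hWJ-MSCs mouse 3 (0.0557), while the log2 fold change stayed between -1.15 and -0.93 with any mouse left out.

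The other measured ligands of the family, Btc, Ereg, Nrg1 and Nrg4, were all called higher after Con A. Betacellulin (Btc) and epiregulin (Ereg) bind EGFR, and neuregulins (Nrg1, Nrg4) bind ERBB3 or ERBB4. Btc had scores of 56, 48, 48 and 62 in the control mice, 217, 122, 158 and 263 with Con A + PBS and 110, 74, 112 and 65 with Con A + hWJ-MSCs. Ereg had scores of 6, 12, 14 and 8, then 124, 77, 62 and 92, then 54, 22, 34 and 48 in the same order of groups. In both genes every Con A + PBS mouse lay above every mouse of the other groups. The log2 fold changes after Con A were 1.76 for Btc (limma adjusted p = 8.97e-05) and 3.05 for Ereg (2.74e-05). With hWJ-MSCs both fell, Btc by 1.05 (SE 0.25, limma adjusted p = 0.0268) and Ereg by 1.18 (SE 0.36, limma adjusted p = 0.0499), the latter at the limit of the call. Nrg4 ranged from 50 to 104 in the control mice, from 558 to 2938 with Con A + PBS and from 144 to 863 with hWJ-MSCs. Its log2 fold changes were 4.05 (SE 0.53, limma adjusted p = 5.52e-05) after Con A and -1.62 (SE 0.53, limma adjusted p = 0.0588) with the cells. Nrg1 was low, from 6 to 19 in the control mice, and its log2 fold changes were 2.50 (limma adjusted p = 9.38e-05) and -0.89 (limma adjusted p = 0.0981). Of the 5 measured ligands, Tgfa included, 5 thus rose after Con A and 3 fell with the cells, beside 38.8% and 8.58% of all genes called. Each gene of the table reaches at least 64 in 2 or more mice, and Ereg and Nrg1 did so only with Con A + PBS. A higher score in that group was thus a condition for both to be measured, and their calls do not add to a count over the family. Against the control group all 5 were called higher with hWJ-MSCs. Egf, Areg, Epgn, Nrg2 and Nrg3 were not analysed here.

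Of the 6 measured genes for the release of these ligands, 4 rose after Con A and 2 fell with hWJ-MSCs. The shares called, 66.7% and 33.3%, stand beside 38.8% and 8.58% of all genes. Rhbdf2 encodes an inactive rhomboid protein that brings the protease ADAM17 to the cell surface. It had scores of 274, 326, 330 and 272 in the control mice, 838, 575, 751 and 1004 with Con A + PBS and 512, 340, 415 and 532 with hWJ-MSCs. The groups did not overlap, and its log2 fold changes were 1.37 (SE 0.18, limma adjusted p = 5.17e-05) and -0.81 (SE 0.18, limma adjusted p = 0.025). Frmd8, which stabilizes that complex, rose by 0.65 (SE 0.11, limma adjusted p = 0.000477) after Con A and differed by -0.37 (limma adjusted p = 0.051) with the cells. Adam9, a membrane protease, rose by 0.63 (limma adjusted p = 0.0026) and fell by 0.60 (limma adjusted p = 0.027). Adam17, the main TGF-alpha protease, had log2 fold changes of 0.33 (limma adjusted p = 0.0117), under the fold limit, and -0.31 (limma adjusted p = 0.0524), and neither was called. The count of 4 after Con A was 2 without Con A + PBS mouse 1 or 4.

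Hgfac, the HGF activator gene (ENSMUSG00000029102, chr5:35041553-35048436, plus strand), had scores of 6030, 6147, 6147 and 6147 in the control mice. They were 2194, 2336, 2260 and 2000 with Con A + PBS and 2857, 3001, 2604 and 2354 with Con A + hWJ-MSCs. Every Con A-treated mouse lay below every control mouse, and the mice with hWJ-MSCs all lay just above those with Con A + PBS. The means were 6118 ± 58.5, 2198 ± 144 and 2704 ± 285 (SD, n = 4). Hgfac fell by 1.48 on the log2 scale (SE 0.10, limma adjusted p = 4.73e-07) after Con A, a 2.79-fold lower level. With hWJ-MSCs it differed from Con A + PBS by 0.30 (95% interval 0.08 to 0.51, limma adjusted p = 0.0645), which was not called. It was lower than in the control group by a log2 fold change of -1.18 (SE 0.10, limma adjusted p = 4.33e-06) in the mice that received the cells. Each of these comparisons gave an exact permutation p of 0.0286.

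Hgf, which encodes the ligand of MET (ENSMUSG00000028864, chr5:16553550-16619439, plus strand), had scores of 148, 170, 168 and 229 in the control mice, 128, 123, 130 and 124 with Con A + PBS and 107, 140, 100 and 112 with hWJ-MSCs. All control mice lay above all Con A-treated mice, while both Con A groups overlapped. The means were 178.8 ± 34.9, 126.2 ± 3.30 and 114.8 ± 17.5 (SD, n = 4). After Con A the log2 fold change was -0.48 (SE 0.15, limma adjusted p = 0.0141), a 1.39-fold lower level that was under the fold limit and so was not called. With the cells Hgf differed from Con A + PBS by -0.15 (95% interval -0.46 to 0.17). Against the control group it fell by 0.63 (SE 0.15, limma adjusted p = 0.00478), a call that was lost without control mouse 4 (log2 fold change -0.50) or Con A + hWJ-MSCs mouse 3 (-0.57), where the difference came under the fold limit. Mst1 encodes the hepatocyte-made homologue of HGF that binds another receptor. It had scores of 3192, 3395, 2931 and 3223 in the control mice, 2053, 2304, 2234 and 1702 with Con A + PBS and 2336, 2437, 2437 and 2604 with hWJ-MSCs, without overlap, and fell by 0.63 (SE 0.11, limma adjusted p = 0.000421) after Con A, a call that was lost without Con A + PBS mouse 4.

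Other proteases that can activate HGF, and their inhibitors, moved in both directions. Of 8 measured genes of this kind, Hgfac included, 2 rose and 2 fell after Con A, and 1 rose and 1 fell with hWJ-MSCs. Over all genes 38.8% were called after Con A, 19.5% higher and 19.2% lower. With the cells 8.58% of all genes were called, 4.20% higher and 4.38% lower. Calls in both directions are thus not particular to this list. Klkb1, the plasma prekallikrein gene, had scores of 2828, 3272, 3364 and 3921 in the control mice, 242, 678, 306 and 110 with Con A + PBS and 881, 1978, 1000 and 500 with hWJ-MSCs. The control mice lay above all others, while the highest Con A + PBS mouse, 2, lay above the lowest mouse with cells, 4. Klkb1 fell by 3.60 (SE 0.48, limma adjusted p = 5.78e-05) after Con A and was higher by 1.82 (SE 0.48, limma adjusted p = 0.0334) with the cells.

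**Figure D2:**
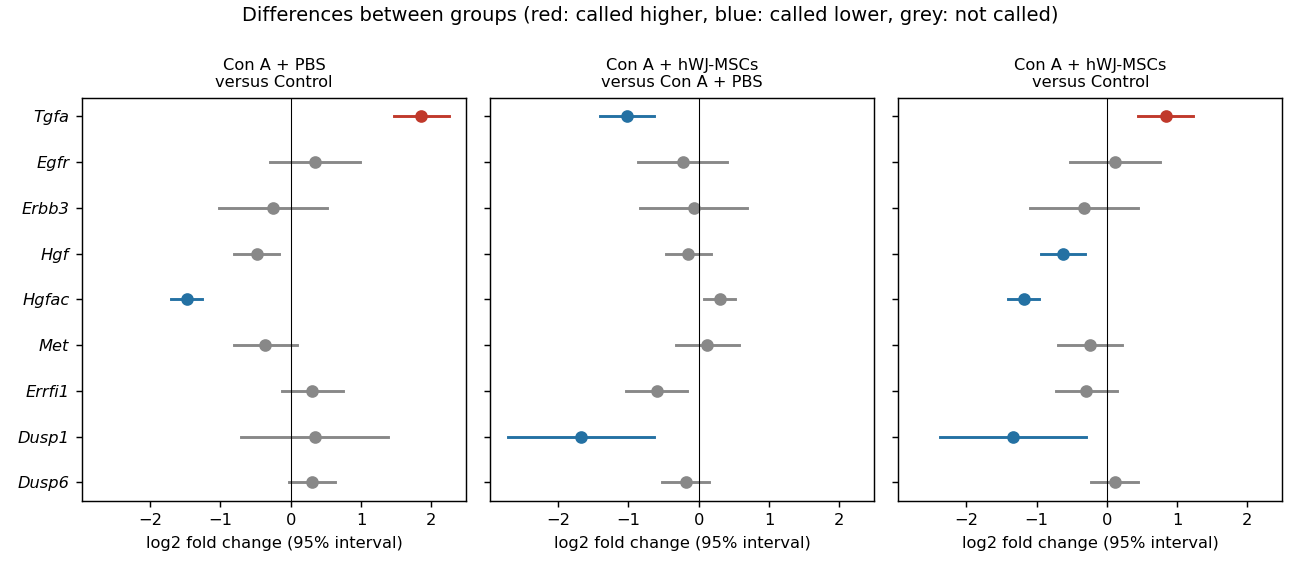
Log2 fold change of log2(score + 1) for each of the 9 genes in 3 comparisons (horizontal axes), with points for the limma estimates and lines for the 95% intervals. Red marks genes called higher, blue genes called lower and grey genes not called. Tgfa is red, blue and red from left to right, Hgfac is blue in both comparisons with the control group, and the intervals of Egfr, Met, Erbb3 and Dusp6 cross 0 in all 3.

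Egfr (ENSMUSG00000020122, chr11:16752203-16887923, plus strand) had scores of 3747, 5393, 7348 and 11601 in the control mice. They were 9867, 8535, 8908 and 6040 with Con A + PBS and 6944, 9413, 5916 and 6158 with hWJ-MSCs. The control mice spanned both other groups, and all groups overlapped. The means were 7022 ± 3389, 8338 ± 1631 and 7108 ± 1598 (SD, n = 4). The log2 fold change was 0.35 (95% interval -0.29 to 0.99) after Con A and -0.23 (95% interval -0.87 to 0.40) with the cells. Without control mouse 4 the difference after Con A was 0.63 (limma adjusted p = 0.0497) and was called, the only change of a call of Egfr among the alternatives.

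Met (ENSMUSG00000009376, chr6:17463800-17573980, plus strand) had scores of 887, 1556, 1063 and 1580 in the control mice, 990, 1276, 985 and 684 with Con A + PBS and 956, 1149, 985 and 1101 with hWJ-MSCs. All groups overlapped, and the lowest score was that of Con A + PBS mouse 4. Its log2 fold changes were -0.36 (95% interval -0.81 to 0.09) after Con A and 0.12 (95% interval -0.33 to 0.57) with the cells. Erbb3 (ENSMUSG00000018166, chr10:128567523-128589652, minus strand) had scores of 2396, 3195, 1920 and 3227, then 2649, 2822, 3265 and 964, then 2023, 2181, 1387 and 3124. Con A + PBS mouse 4 was again the lowest of all mice, and the other mice of that group lay within the range of the control mice or just above it. Its log2 fold changes were -0.25 (95% interval -1.02 to 0.52) and -0.07 (95% interval -0.84 to 0.69). Erbb4, another neuregulin receptor, was the remaining measured receptor of the family. It had scores of 185, 154, 181 and 212 in the control mice, 76, 64, 96 and 94 with Con A + PBS and 76, 52, 39 and 50 with hWJ-MSCs, and fell by 1.15 (SE 0.20, limma adjusted p = 0.000508) after Con A. With the cells it differed by -0.62 (SE 0.20, limma adjusted p = 0.0606).

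Dusp1 (ENSMUSG00000024190, chr17:26505590-26508519, minus strand) encodes a nuclear phosphatase that inactivates MAP kinases and is itself an early gene. Its scores were 308, 628, 466 and 859 in the control mice, 617, 282, 540 and 2121 with Con A + PBS and 192, 216, 195 and 234 with Con A + hWJ-MSCs. All mice with hWJ-MSCs lay below all others and close together, whereas Con A + PBS mouse 4 had more than any other mouse. The means were 565.2 ± 235, 890.0 ± 833 and 209.2 ± 19.6 (SD, n = 4). After Con A the log2 fold change was 0.34 (95% interval -0.70 to 1.38), which was not called. With hWJ-MSCs Dusp1 fell by 1.68 (SE 0.48, limma adjusted p = 0.0424) against Con A + PBS and by 1.33 (SE 0.48, limma adjusted p = 0.0412) against the control group, each with an exact permutation p of 0.0286. Without Con A + PBS mouse 4 the difference to Con A + PBS was -1.12 (limma adjusted p = 0.0653), and the call was lost in 9 of the 12 fits that left out 1 mouse, with adjusted p-values up to 0.101. Those fits left out Con A + PBS mouse 1, 3 or 4, any of the 4 mice with hWJ-MSCs, or control mouse 2 or 3.

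Errfi1 encodes MIG6, a protein that binds and inhibits EGFR (ENSMUSG00000028967, chr4:150853919-150868892, plus strand). It had scores of 13142, 13896, 8498 and 16262 in the control mice, 16262, 13896, 15018 and 17606 with Con A + PBS and 9353, 12175, 8202 and 12175 with hWJ-MSCs. The Con A groups did not overlap, and the control mice spanned most of both. With the cells the log2 fold change was -0.60 (SE 0.20, exact permutation p = 0.0286, limma adjusted p = 0.0613), which was not called. It was called with array weights (limma adjusted p = 0.0156), with only the 8 mice compared (0.0426) and without control mouse 3 (0.041). Dusp6, an ERK-specific phosphatase of the cytoplasm (ENSMUSG00000019960, chr10:99263231-99267488, plus strand), had scores of 507, 471, 814 and 710, then 743, 709, 776 and 774, then 720, 641, 624 and 658. The Con A + PBS mice lay close together within the range of the control mice. The log2 fold changes were 0.30 (95% interval -0.03 to 0.63) after Con A and -0.18 (95% interval -0.52 to 0.15) with the cells.

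A list of 16 measured genes held MAP kinase phosphatases, Sprouty and Spred proteins and GTPase-activating proteins that switch RAS off. All limit RAS or MAP kinases, not in every case ERK, and Dusp1 and Dusp6 are among them. Of the 16, 5 rose and 1 fell after Con A, and 3 fell with hWJ-MSCs. The shares called, 37.5% and 18.8%, stand beside 38.8% and 8.58% of all genes, so the first is near the background. The count of 3 was 0 without Con A + PBS mouse 4, 7 without Con A + PBS mouse 2 and 5 without Con A + hWJ-MSCs mouse 4. Dusp5, a nuclear phosphatase of ERK, ranged from 6 to 18 in the control mice, from 103 to 410 with Con A + PBS and from 28 to 76 with hWJ-MSCs, without overlap. Its log2 fold changes were 3.77 (SE 0.47, limma adjusted p = 4.07e-05) and -1.78 (SE 0.47, limma adjusted p = 0.0356). Dusp10, a phosphatase of p38 and JNK, had log2 fold changes of 1.82 (limma adjusted p = 0.000269) and -1.14 (limma adjusted p = 0.0333). Dusp4 was at 0 to 10 in the control mice, at 36 to 193 with Con A + PBS and at 5 to 25 with hWJ-MSCs. Like Ereg and Nrg1, Dusp4 reached 64 only with Con A + PBS. It rose by 4.69 on the log2(score + 1) scale (SE 0.80, limma adjusted p = 0.000362), and with the cells differed by -2.58 (SE 0.80, limma adjusted p = 0.0509). Among the 14 inhibitors and ubiquitin ligases of the receptors, Errfi1 included, 4 rose after Con A and 1 fell with the cells, 28.6% and 7.14%, both below the shares of all genes. Ptpn2, a phosphatase that acts on EGFR and other kinases, rose by 1.40 (SE 0.20, limma adjusted p = 0.000106), and Cblb, a ubiquitin ligase, by 1.01 (SE 0.13, limma adjusted p = 3.89e-05). Ptprj, a receptor phosphatase, fell by 0.68 (SE 0.19, limma adjusted p = 0.0408) with the cells.

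**Figure D3:**
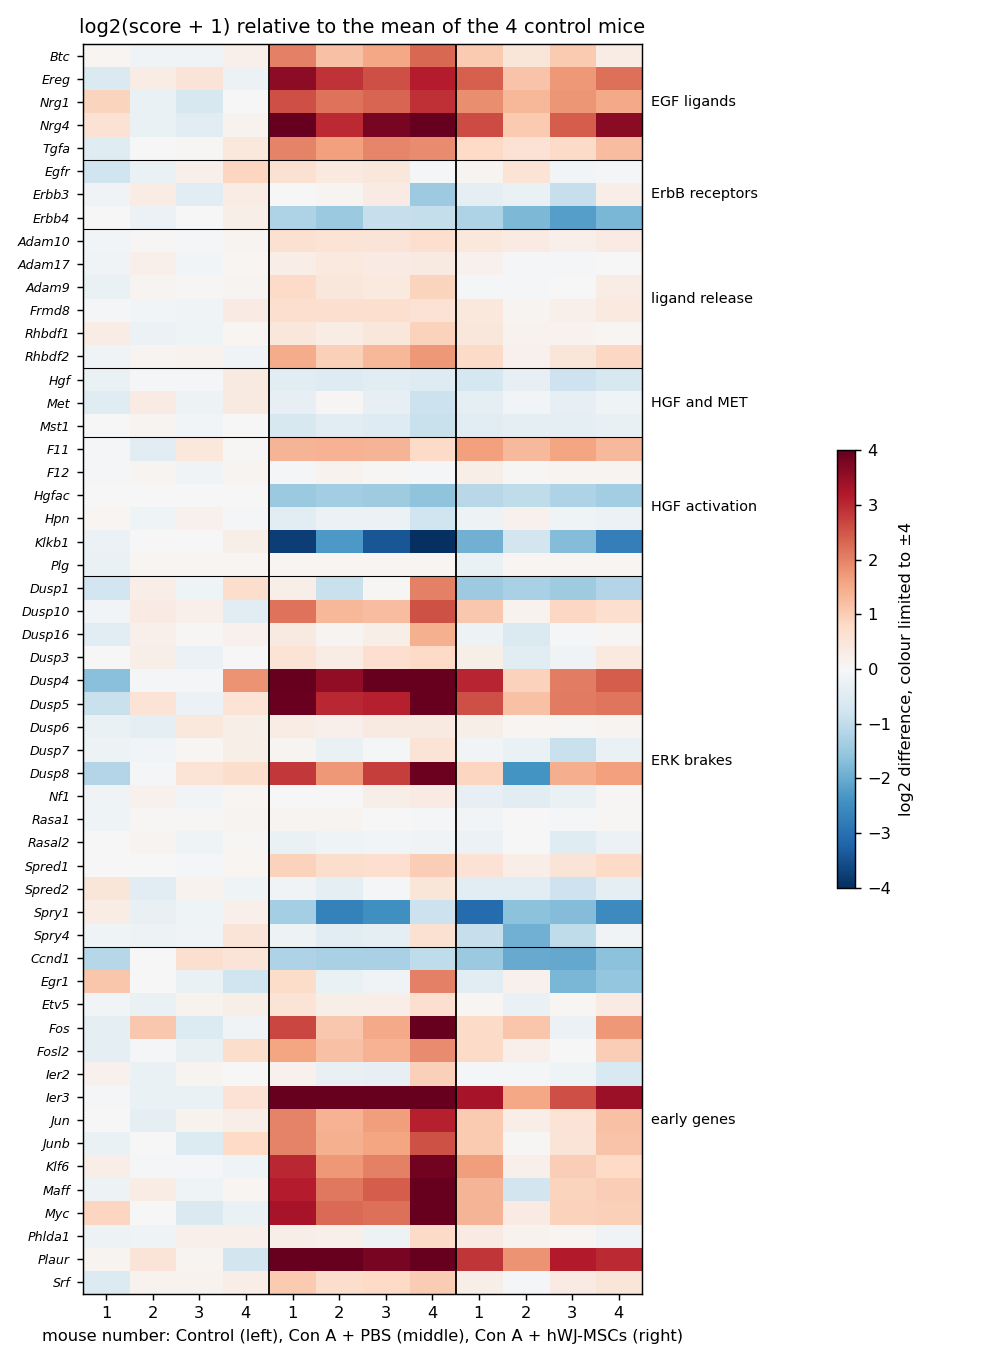
Difference of log2(score + 1) from the mean of the 4 control mice (colour, limited to ±4) for the measured ligands, receptors, HGF-activating proteases, inhibitors of signaling and early genes, in rows, over the 12 mice, in columns by group and mouse number. The EGF ligands and most early genes are red in all Con A + PBS mice, and paler with hWJ-MSCs, while Hgfac and Klkb1 are blue in all mice that received Con A.

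The early genes that ERK signaling induces, which other stress pathways induce as well, had the highest share called among the lists with more than 10 measured genes after Con A (73.3%) and between the Con A groups (60.0%). All genes were called at 38.8% and 8.58%. Of the smaller lists, the EGF family ligands (100%) and the cell cycle genes (83.3%) had higher shares after Con A, and the ligands the same 60.0% between the Con A groups. With hWJ-MSCs against the control group the early genes were at 20%, beside 33.3% of the adaptors and 26.7% of all genes. Of the 15 measured, 10 rose and 1 fell after Con A, and 9 fell with hWJ-MSCs, with median log2 fold changes of 1.88 and -1.28. Ier3, an early survival gene, had scores of 14, 12, 12 and 22 in the control mice, 541, 274, 374 and 1604 with Con A + PBS and 152, 44, 92 and 167 with hWJ-MSCs. The groups did not overlap, and its log2 fold changes were 5.14 (SE 0.52, limma adjusted p = 7.54e-06) and -2.43 (SE 0.52, limma adjusted p = 0.0232). Plaur, the urokinase receptor gene, had log2 fold changes of 4.21 (SE 0.36, limma adjusted p = 2.3e-06) and -1.50 (SE 0.36, limma adjusted p = 0.027). Maff, a small MAF transcription factor, had log2 fold changes of 2.94 (SE 0.46, limma adjusted p = 0.000189) and -2.31 (SE 0.46, limma adjusted p = 0.0208). The gene that fell after Con A was Ccnd1, which encodes cyclin D1 and is named here after its values were seen. It had scores of 371, 806, 1293 and 1170 in the control mice, 350, 332, 332 and 408 with Con A + PBS and 291, 202, 196 and 260 with hWJ-MSCs, and fell by 1.21 (SE 0.31, limma adjusted p = 0.00544). Con A + PBS mouse 4 had the highest score of its group in 14 of the 15 early genes, and without it 10 still rose and 1 fell after Con A, while 5 fell with the cells. Without Con A + PBS mouse 1, Con A + hWJ-MSCs mouse 2 or Con A + hWJ-MSCs mouse 3, 0 of the 15 were called with the cells by limma, and at an unadjusted p below 0.05 with the same fold limit 9 or 10 were lower. In these fits few calls remained over all genes too, as given below.

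Genes of the cascade between the receptors and the early genes, and of the cell cycle, were counted in the same way, beside the 38.8% of all genes called after Con A and the 8.58% with hWJ-MSCs. Of 11 measured RAS, RAF, MEK and ERK genes, 3 rose after Con A and 1 fell with hWJ-MSCs. Nras rose by 1.44 (SE 0.13, limma adjusted p = 2.88e-06), and Map2k1, which encodes MEK1, rose by 0.86 (SE 0.13, limma adjusted p = 0.000155) and fell by 0.68 (SE 0.13, limma adjusted p = 0.0198) with the cells. Of 12 adaptors and phosphatases at the receptors, 3 rose and 3 fell after Con A, and 3 fell with the cells. The count of 3 lower after Con A was 1 without control mouse 2 or 4. Grb7, an adaptor of the ErbB receptors, fell by 1.30 (SE 0.18, limma adjusted p = 7.07e-05) after Con A. Ptpn11, which encodes SHP2, rose by 0.96 (limma adjusted p = 0.00298) and fell by 0.85 (limma adjusted p = 0.0331), and Gab2, a docking protein, rose by 0.91 (limma adjusted p = 0.00347) and fell by 0.77 (limma adjusted p = 0.04). Of 8 PI3K and AKT genes, 1 rose after Con A and 1 fell with the cells, the latter being Pdpk1, a kinase upstream of AKT (log2 fold change -0.67, limma adjusted p = 0.0478). Of 6 measured cell cycle genes, 4 rose and 1, Ccnd1, fell after Con A, and 0 of the 6 were called with hWJ-MSCs by limma, 0 also at an unadjusted p below 0.05 and the same fold limit. Mcm2, part of the replicative helicase, rose by 1.71 (SE 0.20, limma adjusted p = 2.59e-05), and Top2a, a topoisomerase of dividing cells, by 1.56 (SE 0.39, limma adjusted p = 0.0047). The count of 4 cell cycle genes was 2 without control mouse 1, 3 or 4, without Con A + PBS mouse 1, 2 or 3, or without Con A + hWJ-MSCs mouse 1.

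**Figure D4:**
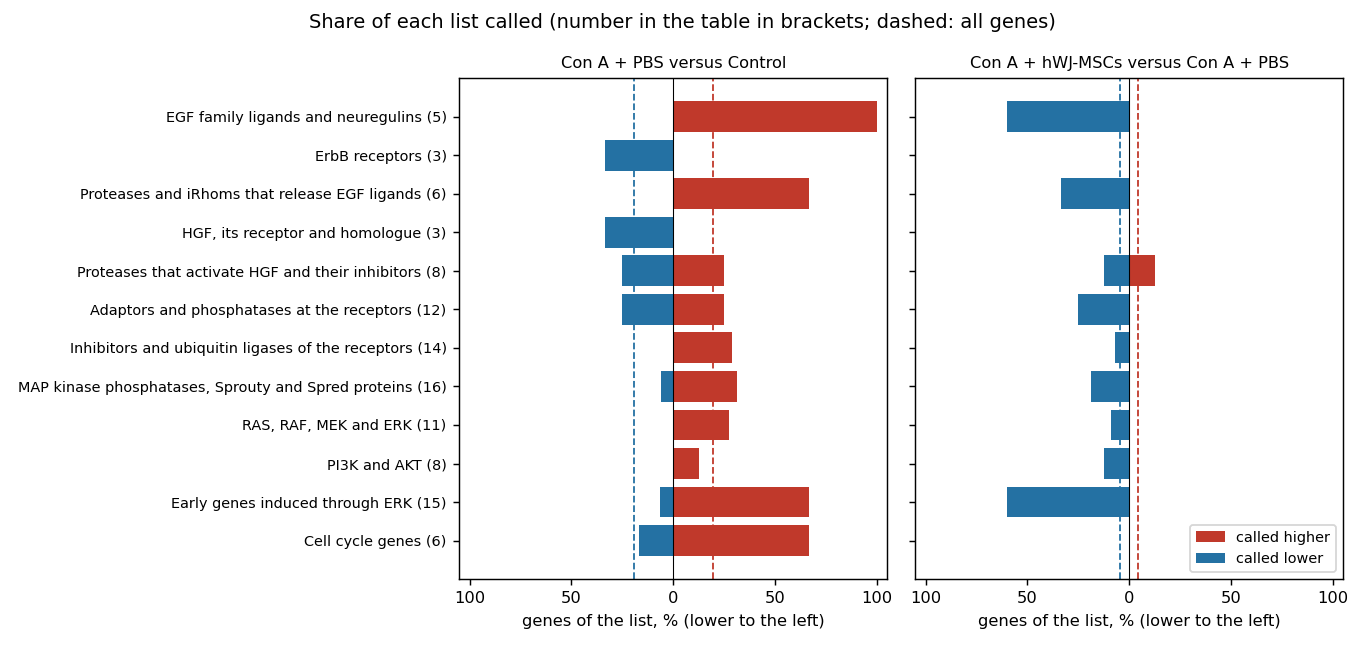
Share of the measured genes of each list (horizontal axis, percent) called higher (red, to the right) or lower (blue, to the left) in 2 comparisons, with the shares over all 11289 genes as dashed lines and the number of measured genes in brackets. The bar of the EGF family ligands reaches 100% to the right after Con A, those of the early genes, the ligand release genes and the cell cycle genes each reach 66.7%, and with hWJ-MSCs the ligands and the early genes have the longest bars to the left, 60.0% each. Of the ligands, Ereg and Nrg1 reached a score of 64, which each gene of the table has in 2 or more mice, only with Con A + PBS.

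Apart from the 9 genes themselves, 97 of the 131 further genes listed for these pathways were in the table. Of them 40 rose and 8 fell after Con A (49.5%, beside 38.8% of all genes), and 1 rose and 22 fell with hWJ-MSCs (23.7%, beside 8.58%). The counts include Ereg, Nrg1, Dusp4, Dusp5, Dusp8 and Fos, which have 64 in 2 or more mice only if the Con A + PBS mice are counted. A higher score in that group was a condition for them to be measured, so their calls do not add to these counts. Against the control group 16 were higher and 10 lower with hWJ-MSCs (26.8%, beside 26.7%). Their median log2 fold changes were 0.44, -0.33 and 0.10. The counts with hWJ-MSCs against Con A + PBS depended on single mice. Without Con A + PBS mouse 1, Con A + hWJ-MSCs mouse 2 or Con A + hWJ-MSCs mouse 3, 0 genes were called in any list described above, the 9 genes included. Over all genes these fits called, in that order, 5 higher and 2 lower, 8 and 10, and 4 and 3. With all mice 474 were higher and 495 lower. The loss of calls is thus not particular to these pathways. Over the 97 genes the count was 5 without Con A + PBS mouse 4, beside 136 higher and 149 lower over all genes. The count over the 97 was 13 without Con A + PBS mouse 3, beside 252 higher and 311 lower over all genes. It was also 13 without Con A + hWJ-MSCs mouse 1, beside 199 higher and 307 lower. At an unadjusted p below 0.05 with the same fold limit, limma gave 1 higher and 32 lower with all mice, and in the fits that gave 0 the numbers were 1 higher and 28 or 29 lower. The median log2 fold change in these fits was between -0.32 and -0.29.

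Con A + PBS mouse 4 stood apart in the whole table, with a mean correlation of 0.943 to its own group, against 0.961 to 0.971 for the other mice of that group. It had the highest score of its group for Errfi1 and Dusp1 and the lowest for Egfr, Met, Hgfac and Erbb3. Among the control mice, mouse 4 had the highest score, ties included, for 8 of the 9 genes, all but Dusp6, and mouse 1 the lowest for 6. Markers of liver cell types moved with the groups as well. The summed score of 9 of 10 listed hepatocyte markers was 858794 to 1076265 in the control group, 665339 to 733654 with Con A + PBS and 739297 to 764633 with hWJ-MSCs. For 9 of 10 neutrophil and monocyte markers, all called higher after Con A, it was 1305 to 5248, 74575 to 342534 and 59509 to 75271, with the highest sum in Con A + PBS mouse 4. For 10 of 10 stellate cell markers it was 6412 to 10776, 6289 to 7238 and 4538 to 5733, and for 10 of 10 sinusoidal endothelial markers 3465 to 5246, 1158 to 1987 and 1615 to 2336. For 9 of 10 Kupffer cell markers, all called lower after Con A, the sums were 5562 to 8382, 786 to 1504 and 659 to 2005. Of the defining markers, Adgre1 and Ly6g were not analysed here, and Retnlg was at 0 in at least 1 mouse. In whole liver, fewer cells of a type and less RNA per cell cannot be told apart, and the part of these shifts in the values of Tgfa, Hgf, Hgfac, Dusp1 and the early genes was not tested.

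**Figure D5:**
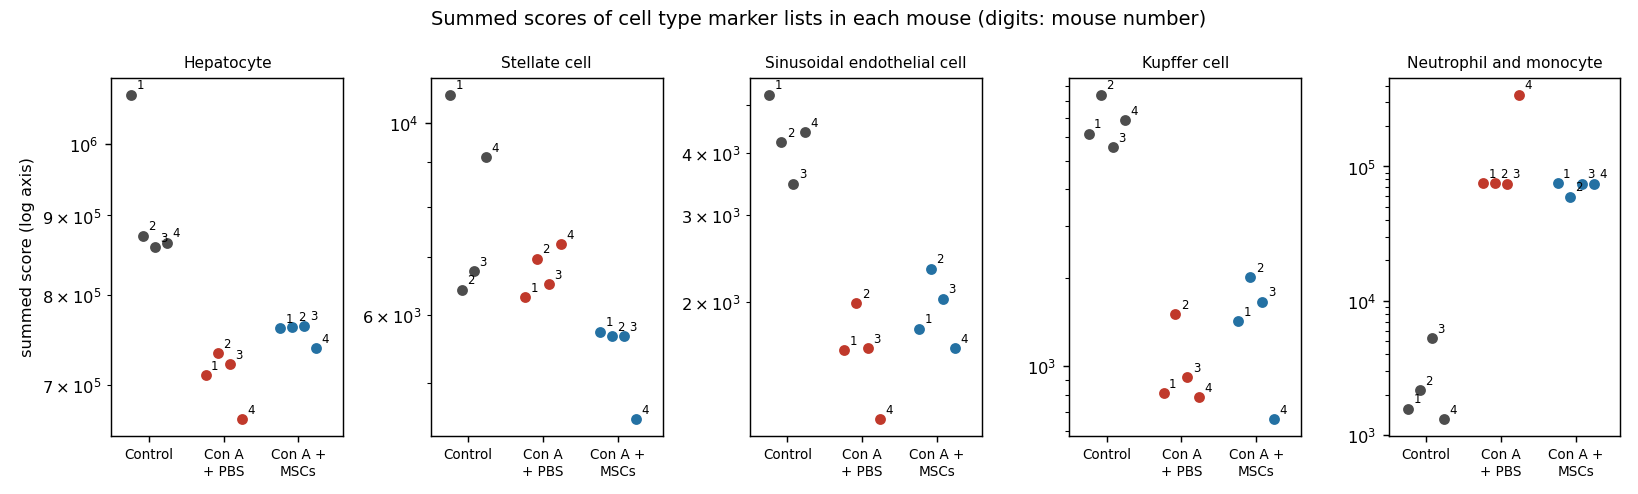
Summed score of the measured markers of 5 cell types (vertical log axes) in each of the 12 mice, with points for mice and their numbers, in 3 groups of 4. Neutrophil and monocyte markers are higher in all mice that received Con A and highest in Con A + PBS mouse 4, and Kupffer and endothelial markers are lower in all of them than in any control mouse.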

How the data were processed

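Liver RNA of 12 mice was measured by poly-A sequencing, and groups and mouse numbers were taken from the sample labels. The authors deposited 1 score for each of 11289 genes in each mouse, and 0 columns were left out. The submitters' processing notes name Bowtie2 2.2.1, RSEM 1.2.18 and mm10. The normalization step is not given in the sources used here. When the scores of each mouse are sorted, 82.1% of the places hold the same score in all 12 mice, 10 genes share the largest score (341028) in each mouse, totals differ by 0.0425% of their median, and each gene reaches at least 64 in 2 or more mice. A score is thus largely set by the gene's place in the order of its mouse, low genes had been left out, and depth and counting error are unknown.

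The authors named DESeq2 in their methods. DESeq2 was not used here, since the scores are not counts. The log2(score + 1) values, which understate the change of low genes, were fitted by limma (version 3.58.1, R 4.3.3; lmFit, eBayes with a trend, 12 mice, no covariates). Single genes were also compared by two-sided exact permutation tests of mean log2(score + 1). Summaries and plots came from Python 3.11.15 with scipy 1.17.1, numpy 2.4.6, pandas 2.3.3 and matplotlib 3.10.9, and the fit was tested on simulated data. Nothing says how the mice were caged or processed together, so p-values measure the spread between these mice. The mouse numbers of the groups belong to different animals.

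The genes and lists were chosen with earlier results of these data known. The text names the 9 genes, the genes of lists with 5 or fewer measured members and, of each other list, the 2 other genes with the largest absolute log2 fold change among those called after Con A and the 2 among those called with hWJ-MSCs. Some genes that meet these rules are not reported here. The alternatives tried were array weights, quantile normalization, centring on the median, genes with a mean of 100 or more, a pseudocount of 10, a variance model with no trend, only the 8 mice compared, other call rules, each mouse left out and the mouse number as a block. Counts per list with each mouse left out were added after seeing the data.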

Additional observations from a re-analysis of the deposited data

Results flagged for a closer look

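The Hgfac score of control mouse 1, 6030, lay apart from the other control mice, which all had 6147, so that its gap to the nearest of them made up the whole range of the group (a ratio of 1, above Dixon's 95% critical value for 4 mice). A ratio above that critical value is reached by chance in about 1 of 20 groups of continuous values, and 27 groups, 9 genes in 3 groups each, were examined. That rate does not apply to tied scores, since any group with 3 equal scores gives a ratio of 1. The gap is small beside the difference to the highest Con A-treated mouse, 3001.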

How the results depend on the processing

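Of 540 values of the 9 genes under single alternatives, 510 kept their status, called or not called, 25 lost a call and 5 gained one. Most of the 540 had no call to lose, since with all mice 2, 2 and 4 of the 9 genes were called in the 3 comparisons. Some alternatives could change little. The median score was 352 in every mouse, so centring on the median could alter no value, and quantile normalization acted on scores that were already largely alike in distribution. Leaving out a mouse of the group not compared changed only the estimate of the spread and the adjusted p, not the fold change. After Con A, the calls of Tgfa (log2 fold change 1.70 to 2.00) and Hgfac (-1.51 to -1.44) held in all 20 alternatives each. The calls of Tgfa with hWJ-MSCs, of Dusp1 and of Hgf were lost as given above. Dusp1 with hWJ-MSCs against Con A + PBS was also not called by eBayes without a trend (adjusted p = 0.0516) or with only the 8 mice compared (0.0654), and over all its alternatives the adjusted p ran from 0.00885 to 0.101. Against the control group, Dusp1 lost its call in the 9 fits without Con A + PBS mouse 1 or 3, any mouse with hWJ-MSCs, or control mouse 2, 3 or 4, with adjusted p up to 0.117. Depth is unknown, so no detection limit can be given, and scores of genes under about 20, such as Ereg, Nrg1 and Dusp4 in control mice, rest on few units of the score.

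With a fold change above 2, the genes called after Con A numbered 31 of the pathways and 2391 in all. With hWJ-MSCs against Con A + PBS that limit gave 14 and 353, and against the control group 2 of the 9 genes, 15 of the pathways and 1539 in all. With no fold limit, 1485 genes in all were called with hWJ-MSCs against Con A + PBS and 4604 against the control group. An unadjusted p gave 1697 against Con A + PBS, and eBayes without a trend 1 of the 9 genes. With each mouse left out in turn, the genes called after Con A numbered 2 to 3 of the 9, 44 to 48 of the pathways and 4093 to 4575 in all. With hWJ-MSCs against Con A + PBS they numbered 0 to 2, 0 to 31 and 7 to 1575, and against the control group 2 to 4, 23 to 35 and 2654 to 3254. The count of 7 over all genes was that without Con A + PBS mouse 1 and that without Con A + hWJ-MSCs mouse 3, and 18 that without Con A + hWJ-MSCs mouse 2, and the cause was not tested.

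The mouse numbers belong to different animals in each group, and whether mice of the same number were handled together is not known. Correlations of the deviations of mice with the same number ran from -0.118 to 0.375, 4 of 12 were over 0.1, and in 9 of 24 cases a mouse correlated best with its own number. With the replicate block, 2, 3 and 4 of the 9 genes were called in the comparisons in the order given above, 48, 27 and 31 of the pathways, and 4429, 1297 and 3080 in all. The additional gene was Errfi1 (adjusted p = 0.0307).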

Other observations

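The genes whose scores ran closest to those of the receptors and of the MET arm, by the root mean square difference of log2(score + 1) over the 12 mice after each gene was set to its control mean, are given as a description. For Egfr they were Bcor (0.23), Stat6 (0.299) and Snrnp200 (0.302). For Met they were Mia3 (0.112), Reps2 (0.132) and Ctdsp1 (0.151), and for Hgf they included Hs3st3b1 (0.116) and Sp4 (0.117). For Hgfac they were Pcyt2 (0.0678), Sqrdl (0.119) and Lactb2 (0.121), with mean scores for Pcyt2 of 11600 in the control group, 4060 with Con A + PBS and 5090 with hWJ-MSCs. The nearest genes of Egfr were farther from it than those of the other 3 genes were from theirs.

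Markers of further cell types were measured in part. The summed score of 4 of 12 T and NK cell markers was 31 to 66 in the control group, 480 to 955 with Con A + PBS and 506 to 828 with hWJ-MSCs. Each gene of the table reaches at least 64 in 2 or more mice. Even the sum of the 4 reached 64 in control mouse 2 only among the control mice. None of the 4 could thus be measured through the control mice alone. A higher score after Con A was a condition for them to be measured, so the rise of this sum cannot be read as a result. The 3 of 6 cholangiocyte markers summed to 2254 to 4431, 2340 to 13241 and 2208 to 6466, with the highest value in Con A + PBS mouse 4. The only measured gene of 6 B cell markers had scores of 122 to 336, 74 to 204 and 92 to 204.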
